A study of Ananas comosus with 9 samples.

Results

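Pineapple (Ananas comosus) peel at 120 days after flowering (DAF) was compared with peel at 90 DAF, with 3 RNA-seq libraries at each age. A gene entered the comparison when it had at least 1 FPKM (fragments per kilobase of transcript, scaled to library depth) in at least 3 of the study's 9 libraries, the other 3 being from 60 DAF. This kept 16791 of 26730 gene models. The labels give tissue, age and replicate number, and name no cultivar, treatment or genotype. Whether the libraries of one age are separate fruits or plants is not stated. The p-values therefore measure only how much these samples differ, and that difference may be technical. Libraries are numbered by the replicate numbers of the labels.

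The pineapple fruit is a fleshy compound fruit whose peel is formed by the outer parts of many fused flowers, and its peel loses its green colour as the fruit matures. Maturing fruit tissue changes along several lines at once. Chloroplasts lose their light-harvesting apparatus, cell walls are remodelled by pectin- and cellulose-cutting enzymes, and respiration turns sugars and organic acids into energy through the mitochondria. The vacuole, which stores acids and sugars, is filled with the help of proton pumps, and hormones such as abscisic acid, auxin, brassinosteroid and jasmonate accompany these steps.

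The gene counts summed to 39160824, 44581579 and 44898100 in the 120 DAF libraries, against 52937826, 44448502 and 35388467 in the 90 DAF libraries. The 10 most abundant genes took 13.1%, 11.4% and 9.85% of the counts at 120 DAF, against 6.07%, 6.04% and 5.04% at 90 DAF. Cuticle genes, which mark surface tissue, were summed over the members that passed the FPKM filter. The study holds no other tissue to compare with, so this sum cannot check the peel label. The cutin, suberin and wax genes summed to 370.3, 399 and 455 FPKM at 120 DAF, against 676, 754 and 645 FPKM at 90 DAF, so they were present at both ages. The chloroplast antenna genes, which mark green tissue, summed to 38.2, 36.4 and 55.8 FPKM at 120 DAF, against 584, 2756 and 348 FPKM at 90 DAF, and the second 90 DAF library was far above the other 90 DAF libraries. The 120 DAF libraries all lay below every 90 DAF library in both sums. These are bulk samples, in which fewer cells of a type and less RNA per cell cannot be told apart.

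Between the ages 2915 genes passed an adjusted p of 0.05 in edgeR's quasi-likelihood test. Of these, 1375 rose at 120 DAF and 1540 fell, which is 8.19% and 9.17% of the genes tested. The genes that fell changed by more. Their median fold was 4.10, and 783 of them (50.8%) changed more than 4-fold, while the genes that rose had a median fold of 2.13, with 358 (26%) above 4-fold. No reads were counted at 120 DAF for 60 of the genes that fell, and none at 90 DAF for 18 of the genes that rose. The 3 libraries of one age lay wholly apart from the 3 of the other in 1101 of the genes that rose, in 1539 of those that fell, and in 36.0% of all genes tested. Overlap was judged on FPKM, which carries the library total. The calls carry trimmed-mean factors instead (0.849 to 0.911 at 120 DAF, 0.973 to 1.148 at 90 DAF). That difference makes FPKM separation easier for falls than for rises, so the 2 counts are not comparable.

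The balance between rises and falls depended on the scaling of the libraries. The trimmed-mean scaling used throughout put the median log2 fold change of all genes at -0.03, and scaling by total count put it at -0.32, with 649 genes higher (3.87%) and 2565 lower (15.3%). The share of calls that were higher was 47.2% with the trimmed mean and 20.2% with total count. For this reason counts and medians under total count scaling are given beside those of many gene groups, and a group's share is to be read against the shares for all genes. Leaving out the first 120 DAF library left 472 genes higher and 622 lower, and leaving out the third left 650 higher and 769 lower. Unless stated otherwise, each gene given with its values below passed the threshold under every alternative setting and with every single library left out, and its 2 ages did not overlap in FPKM. A filter of 5 FPKM left Aco012035, Aco013375, Aco013430 and Aco014296 out of the test, so for these that alternative gave no value. Log2 fold changes are given ± their standard error.

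**Figure D1:**
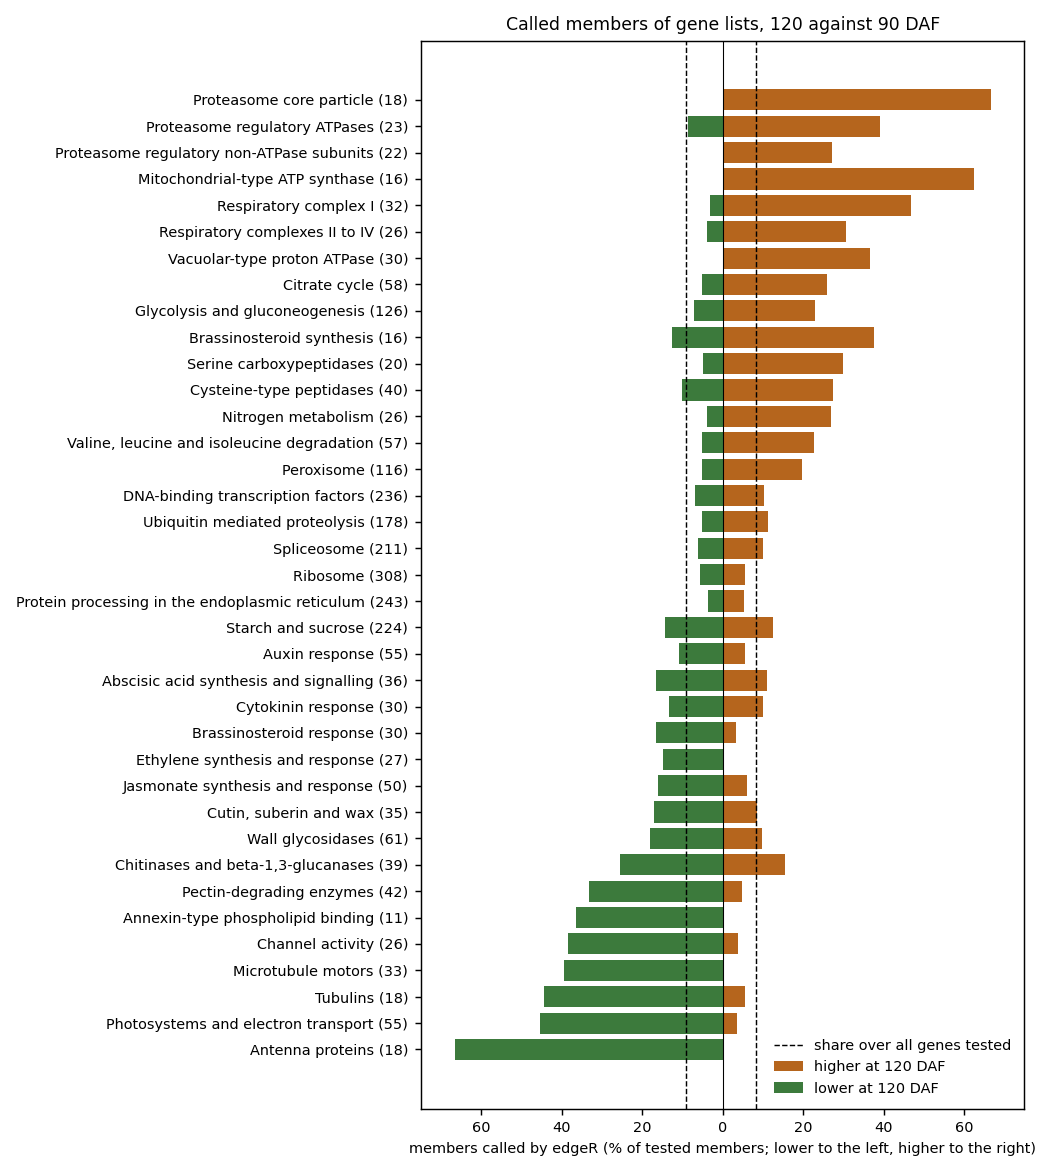
Percent of the tested members of 37 gene groups that rose (bars to the right) or fell (bars to the left) at 120 DAF against 90 DAF, by edgeR at an adjusted p of 0.05; dashed lines mark the 8.19% higher and 9.17% lower among all genes tested. Proteasome, respiratory and ATP synthase groups have long bars to the right, and antenna, photosystem, tubulin, motor and channel groups have long bars to the left.

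The largest annotated rises included enzymes of several classes. Aco030461 (contig 4, 8560686 to 8563378), an O-methyltransferase by its enzyme number, had 1291, 429 and 1314 FPKM at 120 DAF, against 0.856, 0.160 and 2.13 FPKM at 90 DAF. On the log2 scale it changed by 10.16 ± 1.14 (edgeR, adjusted p = 0.00276), and its model overlaps that of Aco022812, so reads could be split between the 2 models. Aco012764 (contig 6, 14585822 to 14590849), a polygalacturonase, which cuts the pectin backbone, had 649, 154 and 401 FPKM at 120 DAF, against 3.16, 0.469 and 0.548 FPKM at 90 DAF. Its lowest library at 120 DAF was far above its highest at 90 DAF, and the log2 fold change was 8.51 ± 1.09 (edgeR, adjusted p = 0.00368). Aco006790, assigned to an ester hydrolase, had 178, 104 and 238 FPKM at 120 DAF, against 2.47, 0.119 and 1.11 FPKM at 90 DAF, a log2 fold change of 7.45 ± 1.19 (edgeR, adjusted p = 0.00750). Aco006590, a cinnamyl-alcohol dehydrogenase, which makes the alcohol precursors of lignin, had 389.9, 102 and 737 FPKM at 120 DAF, against 11.6, 3.79 and 12.8 FPKM at 90 DAF, and here too the second 120 DAF library was the lowest of its age. The fitted log2 change was 5.74 ± 1.0 (edgeR, adjusted p = 0.00978).

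Several of the largest annotated falls were in genes with no reads counted at 120 DAF. Aco018386 (contig 8, 12055767 to 12058467), a glutathione transferase, an enzyme class that conjugates and carries flavonoid pigments among other compounds, had 0, 0 and 0 FPKM at 120 DAF, against 36.3, 144 and 48.9 FPKM at 90 DAF. Against a floor of 3 counts over the 3 libraries of 120 DAF it was at least 1953-fold lower at 120 DAF (edgeR adjusted p = 0.00339). The antenna gene Aco001181 was at least 784-fold lower at 120 DAF by the same floor (edgeR adjusted p = 0.00740), with 0, 0 and 0 FPKM at 120 DAF, against 10.2, 58.0 and 9.53 FPKM at 90 DAF. Aco002960, an asparagine synthetase, which makes the transport form of nitrogen asparagine, had 0, 0 and 0 FPKM at 120 DAF, against 8.05, 31.3 and 23.5 FPKM at 90 DAF. It was at least 299.6-fold lower at 120 DAF (edgeR adjusted p = 0.0107). Such floors cover counting error only. Aco020332, a class III peroxidase, an enzyme of the cell wall, had 0.266, 0 and 0.389 FPKM at 120 DAF, against 43.3, 50.2 and 70.7 FPKM at 90 DAF and a log2 fold change of -7.64 ± 1.15 (edgeR, adjusted p = 0.00633).

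Where genes of mitochondrial respiration were called, nearly all were higher at 120 DAF. Of complex I, which passes electrons from NADH to ubiquinone, 15 of 32 tested members rose and 1 fell, with a median log2 fold change of 0.62 (with total count scaling 3 rose, 1 fell and the median was 0.33). Without 120 DAF library 1, 4 rose, while the count that rose over all genes tested went from 1375 to 472. Aco013186, the NDUFS6-type subunit of complex I, had 407, 469.9 and 386 FPKM at 120 DAF, against 294, 249 and 217 FPKM at 90 DAF. The 3 libraries of 120 DAF all exceeded those of 90 DAF, and the log2 fold change was 1.03 ± 0.12 (edgeR, adjusted p = 0.00322). Aco029046, the NDUFS8-type iron-sulfur subunit, had 276, 302 and 254 FPKM at 120 DAF, against 217, 156 and 183 FPKM at 90 DAF and a log2 fold change of 0.87 ± 0.16 (edgeR, adjusted p = 0.0105). The one fall in this group was Aco017814, annotated as acyl carrier protein 4, with 2.91, 1.38 and 2.57 FPKM at 120 DAF, against 69.3, 253 and 45.4 FPKM at 90 DAF. This gave a log2 fold change of -5.4 ± 0.72 (edgeR, adjusted p = 0.00399). Acyl carrier proteins carry growing fatty acid chains, and KEGG places some of them with complex I.

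The later steps of respiration also had more rises than falls. In complexes II to IV, which take electrons from succinate and ubiquinone to oxygen, 8 of 26 tested members rose and 1 fell, with a median log2 fold change of 0.44 (with total count scaling 4 rose, 1 fell and the median was 0.13). Here 4 rose without 120 DAF library 1, and the single fall was lost without any one of the 60 DAF libraries, the second 90 DAF library or any one of the 120 DAF libraries. In the mitochondrial-type ATP synthase, which makes ATP from the proton gradient, 10 of 16 tested members rose and 0 fell, with a median of 0.60 (with total count scaling 4 rose, 1 fell and the median was 0.29). In that group 4 rose without 120 DAF library 1 and 6 rose without 120 DAF library 3. Aco012728, ATP synthase subunit O, the stalk protein that ties the enzyme's head to its base, had 323, 325 and 296 FPKM at 120 DAF, against 230.2, 199.5 and 184 FPKM at 90 DAF. The ages did not overlap, and its log2 fold change was 0.92 ± 0.12 (edgeR, adjusted p = 0.00447). Aco014349, subunit d of the same stalk, had 345, 303 and 273 FPKM at 120 DAF, against 218, 181 and 172 FPKM at 90 DAF and a log2 fold change of 0.99 ± 0.14 (edgeR, adjusted p = 0.00468).

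Proton pumps of the vacuole rose in part. Of the vacuolar-type ATPase, which acidifies the vacuole at the cost of ATP, 11 of 30 tested members rose and 0 fell. The median log2 fold change was 0.26, and it turned slightly negative with total count scaling, under which 6 rose, 0 fell and the median was -0.04. In this group 7 rose without 120 DAF library 1 and 1 fell without 120 DAF library 2. The largest called rise among the subunits given here was Aco000352, subunit E of the stator stalk, with 420.4, 314 and 361 FPKM at 120 DAF, against 99.7, 60.6 and 72.4 FPKM at 90 DAF. Its lowest 120 DAF library was more than 3 times its highest 90 DAF library, and the log2 fold change was 2.54 ± 0.23 (edgeR, adjusted p = 0.00176). Aco022226, subunit G of that stalk, had 1775, 1304 and 1416 FPKM at 120 DAF, against 766, 822 and 661 FPKM at 90 DAF and a log2 fold change of 1.3 ± 0.17 (edgeR, adjusted p = 0.00381). Aco015226, subunit B of the head that binds ATP, had 698, 841 and 742 FPKM at 120 DAF, against 477, 361 and 377 FPKM at 90 DAF and a log2 fold change of 1.2 ± 0.18 (edgeR, adjusted p = 0.00563). Aco014555, a membrane ring subunit c, had 794, 767 and 694 FPKM at 120 DAF, against 542, 459 and 496 FPKM at 90 DAF and a smaller log2 fold change of 0.88 ± 0.14 (edgeR, adjusted p = 0.00763). None of the 11 tested P-type proton ATPases, the pumps of the plasma membrane, passed the edgeR test (3 rose without 120 DAF library 2). Of 14 tested genes of the GO term inorganic diphosphatase activity, which split pyrophosphate, 0 rose and 3 fell. The term does not say whether these enzymes are soluble or membrane pumps. Without 90 DAF library 2 or 3, 1 rose. The count that fell was 0 without 120 DAF library 1 or 3. It was 1 without any one of 60 DAF library 1, 2 or 3 or 90 DAF library 1 or 2.

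**Figure D2:**
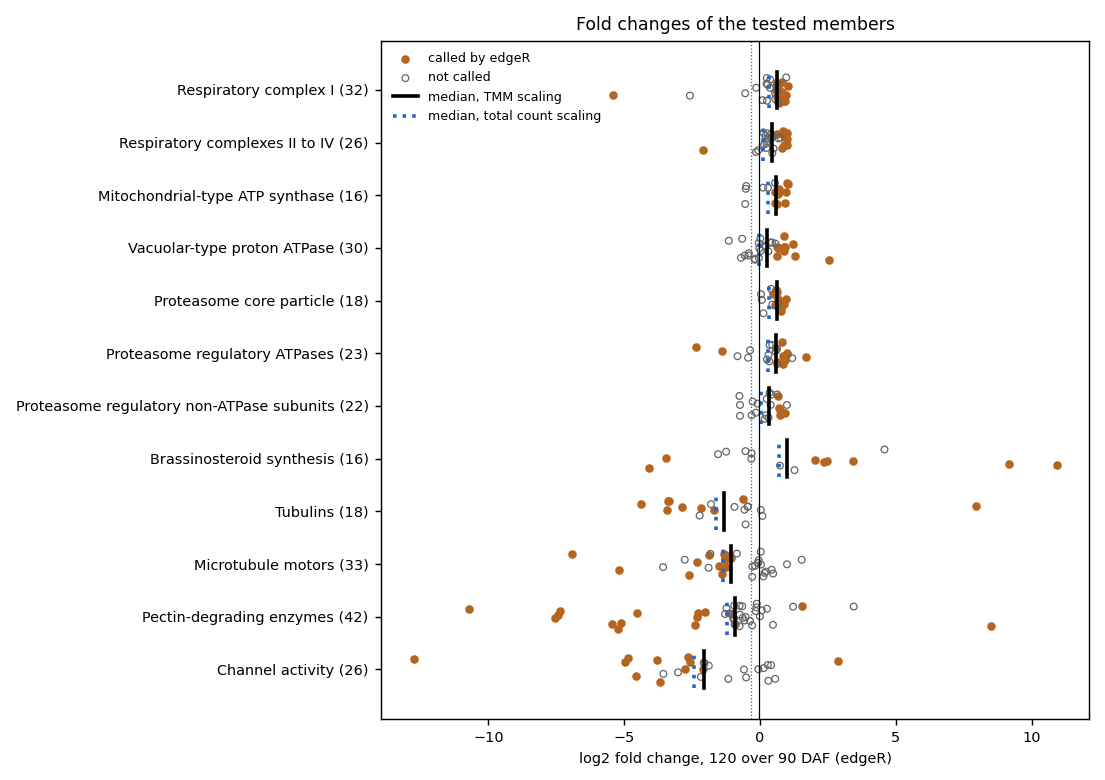
Log2 fold change of each tested member of 12 gene groups at 120 DAF against 90 DAF (points; filled where called by edgeR, open where not), with the group median under trimmed-mean scaling (black bar) and under total count scaling (dotted blue bar). Complex I, ATP synthase and proteasome core members lie mostly above 0, and tubulin, motor and channel members mostly below. The leftmost point of the channel group is a gene with no reads at 120 DAF, whose fitted fold is not a bound.

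Genes of sugar breakdown and the citrate cycle were mixed. In glycolysis and gluconeogenesis 29 of 126 tested members rose and 9 fell, and the median log2 fold change of 0.17 changed sign with total count scaling, under which 14 rose, 17 fell and the median was -0.11. In this group 15 rose without 120 DAF library 3, 17 rose without 120 DAF library 1, 2 fell without 120 DAF library 1 or 3 and 5 fell without 120 DAF library 2. Aco024987, a triose-phosphate isomerase, which interconverts the triose phosphates of glycolysis, had 716, 675 and 688 FPKM at 120 DAF, against 407, 464 and 255 FPKM at 90 DAF. Its ages did not overlap, and the log2 fold change was 1.2 ± 0.19 (edgeR, adjusted p = 0.00750). In the citrate cycle, which oxidises acetyl units in the mitochondrion, 15 of 58 tested members rose and 3 fell, with a median of 0.34 (with total count scaling 5 rose, 4 fell and the median was 0.05). There 6 rose without 120 DAF library 1 and 9 rose without 60 DAF library 3 or 120 DAF library 2 or 3. Citrate synthase gene Aco024619, whose enzyme joins acetyl-CoA to oxaloacetate, had 407, 399.6 and 441 FPKM at 120 DAF, against 355, 177 and 239.7 FPKM at 90 DAF. Its log2 fold change was 0.99 ± 0.25 (edgeR, adjusted p = 0.0303), but the call was not stable. The adjusted p ranged from 0.00256 to 0.0880, and it exceeded 0.05 in 10 of 18 alternatives. These included the fits without 60 DAF libraries 2 (0.0523) or 3 (0.0527), 90 DAF library 3 (0.0585) or 120 DAF libraries 1 (0.0829), 2 (0.0515) or 3 (0.0869). Aco005631, an NADP-malic enzyme, which splits malate to pyruvate and CO2, had 727, 536 and 613 FPKM at 120 DAF, against 386, 355 and 336 FPKM at 90 DAF and a log2 fold change of 1.10 ± 0.21 (edgeR, adjusted p = 0.0121).

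The proteasome, which degrades proteins tagged with ubiquitin, had the highest share of rises but one among the 118 KEGG pathways with at least 10 tested genes. Of 71 tested proteasome genes, 31 (43.7%) rose and 2 fell, with a median log2 fold change of 0.55 (with total count scaling 5 rose, 6 fell and the median was 0.25). Without the first, the second and the third 120 DAF library, 6, 18 and 14 rose. Over all genes tested 472, 1093 and 650 rose in those fits, against 1375 with every library. The count that fell was 0 without 120 DAF library 1 or 90 DAF library 2 and 1 without 120 DAF library 3. In the core particle, the barrel in which tagged proteins are cut, 12 of 18 tested members rose and 0 fell, and all 18 members had positive fold changes, with a median of 0.62 (with total count scaling 2 rose, 0 fell and the median was 0.32). In the core 3 rose without 120 DAF library 1, 4 rose without 120 DAF library 3 and 7 rose without 120 DAF library 2. Aco007685, an alpha subunit of the core, had 219.8, 211 and 197 FPKM at 120 DAF, against 164, 138 and 120.4 FPKM at 90 DAF. The 3 libraries of 120 DAF lay above those of 90 DAF, and its log2 fold change was 0.87 ± 0.13 (edgeR, adjusted p = 0.00653).

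Members of the cap that feeds the core were also called. Of the regulatory ATPases, which unfold substrates, 9 of 23 tested members rose and 2 fell, with a median of 0.58 (with total count scaling 3 rose, 4 fell and the median was 0.29). In this group 2 rose without 120 DAF library 1, 0 fell without 90 DAF library 2 or 120 DAF library 1 and 1 fell without 120 DAF library 2 or 3. Aco006518, the RPT2-type ATPase, had 259, 264 and 254 FPKM at 120 DAF, against 185, 141 and 174 FPKM at 90 DAF and a log2 fold change of 0.92 ± 0.17 (edgeR, adjusted p = 0.0107). Of the non-ATPase subunits, 6 of 22 tested members rose and 0 fell, with a median of 0.33 (with total count scaling 0 rose, 1 fell and the median was 0.04). There 0 rose without 120 DAF library 1, 2 rose without 60 DAF library 2 or 120 DAF library 2 or 3, 3 rose without 60 DAF library 3 and 1 fell without 90 DAF library 3 or 120 DAF library 2. Aco022253, assigned to UFD1, which with other proteins pulls tagged substrates from membranes, had 197, 211 and 189.5 FPKM at 120 DAF, against 128, 119.6 and 117 FPKM at 90 DAF. On the log2 scale it changed by 1.0 ± 0.13 (edgeR, adjusted p = 0.00359).

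Outside the proteasome, peptidases split. Of the serine carboxypeptidases, which trim proteins from their carboxyl end in the vacuole, 6 of 20 tested members rose and 1 fell (with total count scaling 4 rose, 1 fell and the median was 0.13), with 0 falls without 120 DAF library 1. Aco021295 of this family had 85.3, 199.7 and 134 FPKM at 120 DAF, against 37.1, 17.9 and 16.0 FPKM at 90 DAF. The fitted log2 change was 2.87 ± 0.37 (edgeR, adjusted p = 0.00368), and the ages did not overlap. Of the cysteine-type peptidases, the class to which pineapple bromelain belongs, 11 of 40 tested members rose and 4 fell, with a median of 0.24 that changed sign with total count scaling, under which 4 rose, 8 fell and the median was -0.06. In this class 4 rose without 120 DAF library 1, 5 rose without 120 DAF library 3, 6 rose without 90 DAF library 1 and 7 rose without 120 DAF library 2. Aco011478, a member of that class, had 989, 532 and 505 FPKM at 120 DAF, against 322, 193 and 256 FPKM at 90 DAF and a log2 fold change of 1.69 ± 0.31 (edgeR, adjusted p = 0.0117). Aco004356, another, went the other way with 287, 438 and 216 FPKM at 120 DAF, against 1565, 1087 and 1517 FPKM at 90 DAF and a log2 fold change of -1.88 ± 0.33 (edgeR, adjusted p = 0.00981). Aco008437, an ATG8-type protein, which coats the membranes of autophagy, had 382, 307 and 301 FPKM at 120 DAF, against 197, 147 and 197 FPKM at 90 DAF and a log2 fold change of 1.15 ± 0.20 (edgeR, adjusted p = 0.00899). Of 44 tested autophagy genes, 5 rose and 0 fell (11.4% and 0%, against 8.19% and 9.17% of all genes). The median log2 fold change was 0.22, and with total count scaling 1 rose, 2 fell and the median was -0.07. From 1 to 3 rose without any one of 60 DAF library 3 or 90 DAF library 1, 2 or 3 or 120 DAF library 1 or 3. Without 120 DAF library 2, 1 fell.

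Within several families one gene rose while another fell. For sucrose synthase, which splits sucrose, Aco006349 had 508, 458 and 427 FPKM at 120 DAF, against 129, 129 and 38.1 FPKM at 90 DAF. The other main gene, Aco009508, had 7.31, 21.9 and 7.01 FPKM at 120 DAF, against 193, 299 and 221 FPKM at 90 DAF. The log2 fold change was 2.57 ± 0.40 (edgeR, adjusted p = 0.00666) for Aco006349 and -4.04 ± 0.53 (edgeR, adjusted p = 0.00383) for Aco009508. Aco017378, a sucrose-phosphate synthase, the enzyme that makes sucrose, had 104, 124 and 67.4 FPKM at 120 DAF, against 2.80, 7.51 and 0.778 FPKM at 90 DAF. Each 120 DAF library was far above each 90 DAF library, a log2 fold change of 5.06 ± 0.89 (edgeR, adjusted p = 0.0101). Among sucrose cleavage and synthesis enzymes 3 of 18 tested members rose and 3 fell (16.7% and 16.7%, with total count scaling 2 and 5). Without 60 DAF library 2 or 90 DAF library 1 or 2 or 120 DAF library 1, 1 fell.

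Starch genes were called in both directions, at shares below those of all genes. Of 70 tested starch synthesis and breakdown enzymes, 4 rose and 5 fell (5.71% and 7.14%, against 8.19% and 9.17%). The median log2 fold change was -0.07, and with total count scaling 3 rose, 9 fell and the median was -0.37. Without any one of 90 DAF library 1 or 120 DAF library 1 or 3, 2 rose. From 1 to 3 fell without any one of 60 DAF library 1, 2 or 3 or 90 DAF library 2 or 120 DAF library 1, 2 or 3. Without 90 DAF library 3, 8 fell. Aco010848, a starch synthase, which lengthens the glucan chain, had 31.7, 35.7 and 34.9 FPKM at 120 DAF, against 13.4, 14.7 and 8.77 FPKM at 90 DAF, a log2 fold change of 1.78 ± 0.22 (edgeR, adjusted p = 0.00339). Aco005712, annotated as alpha-amylase 3, which cuts starch in plastids, had 649, 433 and 509 FPKM at 120 DAF, against 309, 194 and 146 FPKM at 90 DAF and a log2 fold change of 1.61 ± 0.29 (edgeR, adjusted p = 0.0106). Aco015397, annotated as cytosolic alpha-glucan phosphorylase 2, had 7.13, 11.5 and 6.46 FPKM at 120 DAF, against 32.0, 49.4 and 38.1 FPKM at 90 DAF. Its 120 DAF libraries all lay lower, with a log2 fold change of -1.98 ± 0.25 (edgeR, adjusted p = 0.00358).

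**Figure D3:**
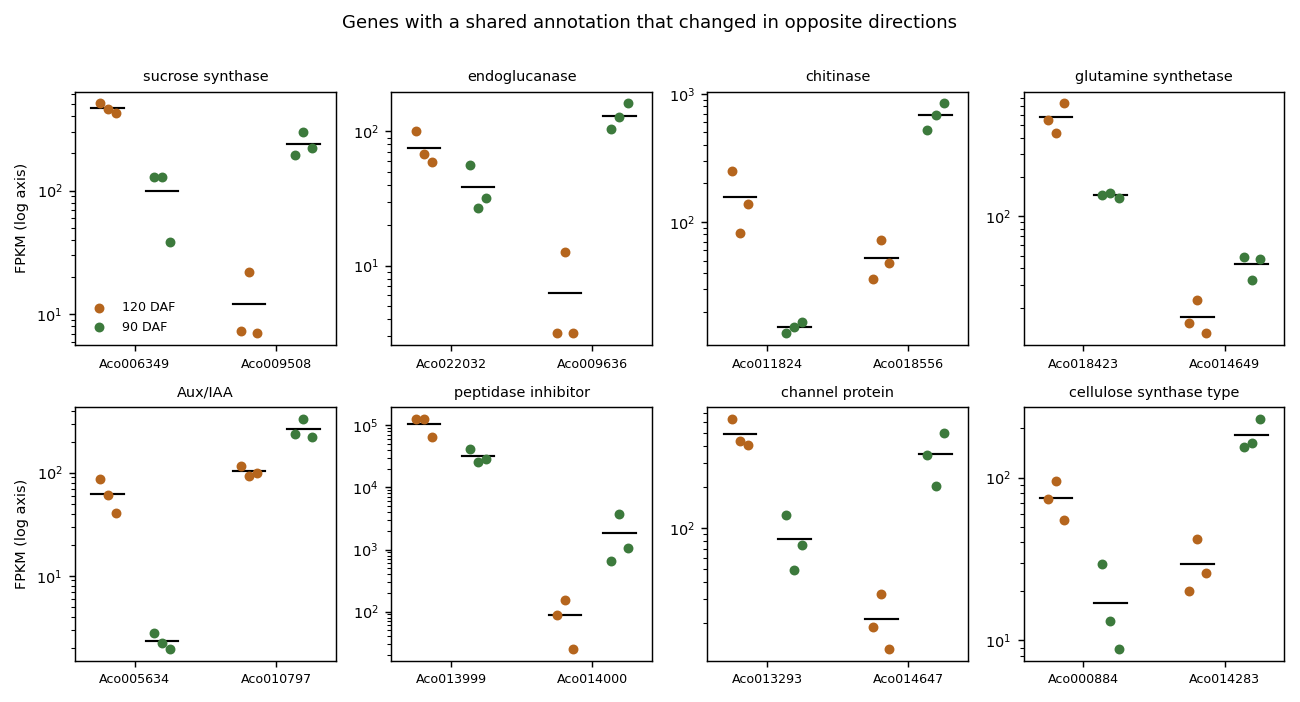
FPKM in each library (dots, logarithmic axis) and the mean of the 3 libraries (bar) of 8 pairs of related genes, with 120 DAF left of 90 DAF for each gene. In each pair one gene is higher and the other lower at 120 DAF, and the 3 libraries of one age lie apart from the 3 of the other in each of the 16 genes.

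Nitrogen and amino acid genes rose in part. In nitrogen metabolism 7 of 26 tested members rose and 1 fell, with a median log2 fold change of 0.50 (with total count scaling 2 rose, 2 fell and the median was 0.21). There 2 rose without 60 DAF library 2 or 120 DAF library 1 or 3, 3 rose without 60 DAF library 3, 4 rose without 60 DAF library 1 or 90 DAF library 3 or 120 DAF library 2, 0 fell without 90 DAF library 1 or 120 DAF library 1 or 3 and 3 fell without 90 DAF library 3. Aco018423, a glutamine synthetase, which fixes ammonium onto glutamate, had 546, 435 and 734 FPKM at 120 DAF, against 146, 151 and 139 FPKM at 90 DAF, a log2 fold change of 2.28 ± 0.29 (edgeR, adjusted p = 0.00367). A second glutamine synthetase, Aco014649, had 15.2, 22.9 and 12.7 FPKM at 120 DAF, against 48.9, 32.7 and 46.9 FPKM at 90 DAF, and its log2 fold change of -1.07 ± 0.26 (edgeR, adjusted p = 0.0261) was not stable. That p ranged from 0.00138 to 0.0934, and it exceeded 0.05 in 5 of 18 alternatives. These included the fits without 90 DAF library 1 (0.0614) or 120 DAF libraries 1 (0.0934) or 3 (0.0826). Aco002692, annotated as ferredoxin-nitrite reductase, which makes ammonium from nitrite, had 477, 619 and 492 FPKM at 120 DAF, against 181, 114 and 266 FPKM at 90 DAF. This gave a log2 fold change of 1.76 ± 0.33 (edgeR, adjusted p = 0.0123). Aco008794, a cysteine synthase, had 1122, 678 and 807 FPKM at 120 DAF, against 442, 379.8 and 255 FPKM at 90 DAF and a log2 fold change of 1.59 ± 0.24 (edgeR, adjusted p = 0.00666).

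The breakdown of branched-chain amino acids, which yields acetyl units and flavour precursors in fruit, was partly higher. There 13 of 57 tested members rose and 3 fell, and the median of 0.25 changed sign with total count scaling, under which 7 rose, 3 fell and the median was -0.04. In this group 7 rose without 120 DAF library 1, 8 rose without 120 DAF library 3 and 1 fell without 120 DAF library 1 or 3. Aco007928, an E1 subunit of the branched-chain keto acid dehydrogenase, the committing step, had 147, 96.5 and 127 FPKM at 120 DAF, against 34.0, 22.6 and 31.1 FPKM at 90 DAF. The ages lay far apart, and the log2 fold change was 2.37 ± 0.26 (edgeR, adjusted p = 0.00272). Aco001766, a methylglutaconyl-CoA hydratase, a later step of leucine breakdown, had 582, 552 and 523 FPKM at 120 DAF, against 305, 295 and 137 FPKM at 90 DAF and a log2 fold change of 1.49 ± 0.28 (edgeR, adjusted p = 0.0120). Aco018996, named ALDH7B4, an aldehyde dehydrogenase, had 696, 507 and 501 FPKM at 120 DAF, against 229.8, 74.7 and 70.2 FPKM at 90 DAF and a log2 fold change of 2.52 ± 0.44 (edgeR, adjusted p = 0.00959).

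Polyamine enzymes are given as single genes, with no count of the group. Aco012091, an S-adenosylmethionine decarboxylase, which supplies the aminopropyl groups of polyamines, had 1667, 1089 and 1438 FPKM at 120 DAF, against 314, 35.6 and 118 FPKM at 90 DAF. Its log2 fold change was 3.49 ± 0.72 (edgeR, adjusted p = 0.0165), with an adjusted p of 0.0512 with 120 DAF library 1 left out and a range of 2.94e-06 to 0.0512 over the alternatives. Aco000360, annotated as spermidine synthase 3, had 145, 119 and 112 FPKM at 120 DAF, against 69.4, 42.7 and 54.1 FPKM at 90 DAF and a log2 fold change of 1.47 ± 0.20 (edgeR, adjusted p = 0.00392). Aco015291, an agmatine deiminase, which acts on the route from arginine to putrescine, had 326, 645 and 344 FPKM at 120 DAF, against 1997, 1631 and 766 FPKM at 90 DAF. On the log2 scale it changed by -1.43 ± 0.35 (edgeR, adjusted p = 0.0286). The adjusted p ranged from 0.000713 to 0.101, and it exceeded 0.05 in 6 of 18 alternatives. These included the fits without 60 DAF library 3 (0.0506), 90 DAF libraries 1 (0.0721) or 2 (0.0661) or 120 DAF libraries 1 (0.101) or 3 (0.0920).

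Peroxisome genes followed the same mixed course. In that pathway 23 of 116 tested members rose and 6 fell, and the median of 0.20 turned negative with total count scaling, under which 7 rose, 13 fell and the median was -0.09. Here 6 rose without 120 DAF library 1, 8 rose without 120 DAF library 3, 15 rose without 60 DAF library 2 or 3, 2 fell without 120 DAF library 1, 3 fell without 90 DAF library 2 or 120 DAF library 3 and 11 fell without 90 DAF library 3. Aco009577, annotated as acyl-coenzyme A oxidase, the first step of fatty acid breakdown in peroxisomes, had 251, 183 and 217 FPKM at 120 DAF, against 75.3, 55.6 and 41.0 FPKM at 90 DAF. Each 120 DAF library was more than 2 times each 90 DAF library, a log2 fold change of 2.24 ± 0.25 (edgeR, adjusted p = 0.00276). Aco023353, annotated as peroxisomal ABC transporter 1, which imports fatty acids, had 93.8, 109 and 87.2 FPKM at 120 DAF, against 63.4, 36.7 and 47.0 FPKM at 90 DAF and a log2 fold change of 1.27 ± 0.21 (edgeR, adjusted p = 0.00797). Aco010626, a catalase, which destroys hydrogen peroxide, had 229, 275 and 197 FPKM at 120 DAF, against 679.5, 1122 and 359.9 FPKM at 90 DAF. Its log2 fold change of -1.31 ± 0.35 (edgeR, adjusted p = 0.0387) was -0.86 without 90 DAF library 2, its highest library at that age. The adjusted p ranged from 0.00222 to 0.114, and it exceeded 0.05 in 10 of 18 alternatives. These included the fits without 60 DAF libraries 1 (0.0522), 2 (0.0631) or 3 (0.0620), 90 DAF libraries 1 (0.0631) or 2 (0.0743) or 120 DAF libraries 1 (0.114), 2 (0.0704) or 3 (0.113).

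Most light-harvesting antenna genes fell. Of these genes 0 of 18 tested members rose and 12 fell, with a median log2 fold change of -4.33 (with total count scaling 0 rose, 13 fell and the median was -4.66). In this group 7 fell without 120 DAF library 1. Aco003394, a chlorophyll a-b binding protein, had 0.590, 0.579 and 0.815 FPKM at 120 DAF, against 94.1, 501 and 56.0 FPKM at 90 DAF, a log2 fold change of -7.99 ± 0.94 (edgeR, adjusted p = 0.00303). Aco017705, the photosystem II protein PsbS that dissipates excess light as heat, had 0.265, 0.181 and 0 FPKM at 120 DAF, against 71.9, 312 and 26.0 FPKM at 90 DAF and a log2 fold change of -9.42 ± 1.37 (edgeR, adjusted p = 0.00557). In photosystems and electron transport 2 of 55 tested members rose and 25 fell (with total count scaling 2 rose, 29 fell and the median was -2.60). Here 11 fell without 120 DAF library 1, 12 fell without 120 DAF library 3 and 14 fell without 120 DAF library 2. One of the rises there was Aco005078, a ferredoxin-NADP reductase, with 373, 408 and 355 FPKM at 120 DAF, against 192, 151 and 149 FPKM at 90 DAF. The fitted log2 change was 1.50 ± 0.18 (edgeR, adjusted p = 0.00334). Aco000337, annotated as chlorophyll b reductase, which starts the breakdown of chlorophyll b, had 150.3, 105 and 186 FPKM at 120 DAF, against 71.1, 49.7 and 45.8 FPKM at 90 DAF and a log2 fold change of 1.72 ± 0.25 (edgeR, adjusted p = 0.00563).

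Of the called tubulin and microtubule motor genes, all but a single tubulin were lower at 120 DAF. Microtubules are built from tubulin pairs, guide the laying down of cellulose and form the spindle of dividing cells. Of the tubulins, 1 of 18 tested members rose and 8 fell, with a median log2 fold change of -1.32 (with total count scaling 1 rose, 12 fell and the median was -1.61). Aco023603, an alpha-tubulin, had 14.3, 12.7 and 14.1 FPKM at 120 DAF, against 54.7, 93.9 and 77.5 FPKM at 90 DAF. The ages did not overlap, and the log2 fold change was -2.17 ± 0.23 (edgeR, adjusted p = 0.00244). Aco004993, another alpha-tubulin, had 17.9, 21.7 and 51.6 FPKM at 120 DAF, against 330.0, 195.7 and 605 FPKM at 90 DAF and a log2 fold change of -3.37 ± 0.57 (edgeR, adjusted p = 0.00902). The single tubulin that rose was Aco012035, a beta-tubulin model with 1.21, 0.261 and 1.04 FPKM at 120 DAF, against 0, 0 and 0 FPKM at 90 DAF. It was at least 34.6-fold higher at 120 DAF against a floor of 3 counts over the 3 libraries of 90 DAF (edgeR adjusted p = 0.0114). It was not called by limma on log2(FPKM + 1), where the adjusted p was 0.118, the highest of a range of 2.66e-06 to 0.118. Its position overlaps that of the beta-tubulin Aco012033, which had 0.890, 2.24 and 2.71 FPKM at 120 DAF, against 17.8, 22.3 and 13.2 FPKM at 90 DAF, and reads could be split between these models.

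Of the kinesins and other microtubule motors, which move along these tracks, 0 of 33 tested members rose and 13 fell, with a median of -1.07 (with total count scaling 0 rose, 16 fell and the median was -1.38). There 1 rose without 60 DAF library 1 or 90 DAF library 2. Aco024311, a kinesin-like calmodulin-binding protein, had 1.2, 1.91 and 1.47 FPKM at 120 DAF, against 7.52, 5.42 and 14 FPKM at 90 DAF and a log2 fold change of -2.32 ± 0.41 (edgeR, adjusted p = 0.0101). Aco007585, more abundant, had 8.18, 8.63 and 9.38 FPKM at 120 DAF, against 21.8, 29.9 and 28.2 FPKM at 90 DAF and a log2 fold change of -1.33 ± 0.24 (edgeR, adjusted p = 0.0114). Helicase subunits of the MCM complex, which mark cells that copy their DNA, did not follow. Of 4 tested, 1 rose and 0 fell, and they summed to 37.6, 50.9 and 55.3 FPKM at 120 DAF, against 50.0, 41.8 and 60.6 FPKM at 90 DAF. Of 50 tested DNA replication genes, 4 rose and 0 fell (8% and 0%, with total count scaling 2 and 1). The count that rose was 2 without 120 DAF library 1 or 3 and 7 without 90 DAF library 2. Without 90 DAF library 3, 1 fell.

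Most of the called pectin-degrading genes fell. In that group 2 of 42 tested members rose and 14 fell, with a median of -0.93 (with total count scaling 2 rose, 15 fell and the median was -1.21). In this group 1 rose without 120 DAF library 1. The polygalacturonase Aco012764, described above, was one of the rises. With that gene included, the tested members summed to 997, 523 and 790 FPKM at 120 DAF, against 634, 726 and 790 FPKM at 90 DAF. The ages overlapped in this sum. Aco014640 (contig 9, 2752559 to 2756745), a pectate lyase, which cuts demethylated pectin, had 0.613, 1.52 and 0.543 FPKM at 120 DAF, against 37.1, 42.7 and 34.0 FPKM at 90 DAF. Its libraries at each age lay close together, and the log2 fold change was -5.12 ± 0.39 (edgeR, adjusted p = 0.00153). The model Aco031545 lies within its span, so reads could be split between them. Aco000699, a second polygalacturonase, had 13.9, 15.3 and 11.1 FPKM at 120 DAF, against 34.0, 43.1 and 24.7 FPKM at 90 DAF and a log2 fold change of -1.04 ± 0.19 (edgeR, adjusted p = 0.0115). Aco019529, a pectinesterase, which removes methyl groups from pectin, had 0, 0.589 and 0 FPKM at 120 DAF, against 30.9, 87.2 and 25.1 FPKM at 90 DAF. Its log2 fold change of -7.54 ± 1.26 (edgeR, adjusted p = 0.00844) was -13.32 without 120 DAF library 2, the only 120 DAF library with reads.

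Enzymes acting on cellulose moved both ways. Among wall glycosidases 6 of 61 tested members rose and 11 fell (9.84% and 18.0%, with total count scaling 3 and 13). The count that rose was 1 without 120 DAF library 1 or 3, 2 without 90 DAF library 1 and 3 without 60 DAF library 2. Aco009636, an endoglucanase, which cuts glucan chains, had 3.15, 12.6 and 3.11 FPKM at 120 DAF, against 105, 127 and 162 FPKM at 90 DAF. The log2 fold change was -4.15 ± 0.58 (edgeR, adjusted p = 0.00485). Aco013120, another endoglucanase, had 10.9, 18.6 and 15.3 FPKM at 120 DAF, against 102, 94.5 and 189.5 FPKM at 90 DAF and a log2 fold change of -2.86 ± 0.36 (edgeR, adjusted p = 0.00351). Aco022032, of the same class, had 100, 68.4 and 58.8 FPKM at 120 DAF, against 56.5, 26.8 and 31.9 FPKM at 90 DAF, with a log2 fold change of 1.29 ± 0.34 (edgeR, adjusted p = 0.0360). That adjusted p ranged from 0.00424 to 0.116, and it exceeded 0.05 in 10 of 18 alternatives. These included the fits without 60 DAF library 2 (0.0551), 90 DAF libraries 2 (0.0893) or 3 (0.0764) or 120 DAF libraries 1 (0.116), 2 (0.0552) or 3 (0.0583). Of the genes with cellulose synthase activity, 4 of 17 tested members rose and 3 fell (23.5% and 17.6%, with total count scaling 2 and 4). The count that rose was 2 without 60 DAF library 3 or 90 DAF library 1, 2 or 3 or 120 DAF library 1 or 3. Without 120 DAF library 1, 1 fell. Aco000884 of this class had 73.4, 94.9 and 54.9 FPKM at 120 DAF, against 29.3, 13.1 and 8.83 FPKM at 90 DAF and a log2 fold change of 2.45 ± 0.39 (edgeR, adjusted p = 0.00736), whereas Aco014283 had 20.1, 42.1 and 26.1 FPKM at 120 DAF, against 154, 163 and 229 FPKM at 90 DAF and a log2 fold change of -2.37 ± 0.31 (edgeR, adjusted p = 0.00383).

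Channel proteins of the membrane were lower in most called members. This group, set by its GO term, includes channels for water and small solutes. There 1 of 26 tested members rose and 10 fell, with a median of -2.08 (with total count scaling 1 rose, 12 fell and the median was -2.42). Here 5 fell without 90 DAF library 3 or 120 DAF library 1 and 6 fell without 120 DAF library 2. Aco014647 had 18.6, 32.9 and 12.9 FPKM at 120 DAF, against 344, 205 and 505 FPKM at 90 DAF. The ages were far apart, with a log2 fold change of -3.79 ± 0.56 (edgeR, adjusted p = 0.00604). Aco004430 had 0, 0 and 0 FPKM at 120 DAF, against 13.9, 5.4 and 56.0 FPKM at 90 DAF and was at least 648-fold lower at 120 DAF (edgeR adjusted p = 0.0126). Aco013293, the channel gene that rose, had 635, 435 and 411 FPKM at 120 DAF, against 126, 49.5 and 74.6 FPKM at 90 DAF and a log2 fold change of 2.87 ± 0.41 (edgeR, adjusted p = 0.00515). Of the annexins, which bind membranes in a calcium-dependent way, 0 of 11 tested members rose and 4 fell (with total count scaling 0 rose, 5 fell and the median was -0.81). There 1 rose without 90 DAF library 3 and 1 fell without 120 DAF library 1 or 3. Aco002807 of that group had 21.1, 32.5 and 22.1 FPKM at 120 DAF, against 92.4, 73 and 101 FPKM at 90 DAF and a log2 fold change of -1.54 ± 0.22 (edgeR, adjusted p = 0.00504).

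Cuticle and fatty acid genes were called in both directions. In cutin, suberin and wax synthesis 3 of 35 tested members rose and 6 fell (with total count scaling 2 rose, 7 fell and the median was -0.58). Under the trimmed mean these shares were 8.57% and 17.1%, against 8.19% and 9.17% of all genes, with a median of -0.25. In this group 1 rose without any one of 90 DAF library 2 or 120 DAF library 1 or 3 and 6 rose without 90 DAF library 3. Aco013430, a peroxygenase by its ortholog code, was one of the rises, with 7.46, 1.17 and 27.8 FPKM at 120 DAF, against 0, 0 and 0 FPKM at 90 DAF. It was at least 333-fold higher at 120 DAF against a floor of 3 counts over the 3 libraries of 90 DAF (edgeR adjusted p = 0.0396), and the adjusted p was 0.0602 with only the 2 ages in the fit, 0.0708 with 90 DAF library 1 left out, 0.0766 with 90 DAF library 2 left out, 0.0540 with 90 DAF library 3 left out, 0.101 with 120 DAF library 1 left out and 0.0654 with 120 DAF library 3 left out in a range of 0.00256 to 0.101. Aco014598, a fatty acid hydroxylase of the cytochrome P450 class, had 1.91, 1.69 and 1.13 FPKM at 120 DAF, against 34.8, 47.9 and 10.3 FPKM at 90 DAF, a log2 fold change of -3.96 ± 0.54 (edgeR, adjusted p = 0.00447). In fatty acid synthesis 2 of 45 tested members rose and 4 fell (with total count scaling 2 rose, 11 fell and the median was -0.39). Under the trimmed mean these shares were 4.44% and 8.89%, both below those of all genes, with a median of -0.07. Here 1 rose without any one of 90 DAF library 1 or 2 or 120 DAF library 3 and 1 to 2 fell without any one of 60 DAF library 1 or 2 or 90 DAF library 2 or 120 DAF library 1, 2 or 3. Aco028362, assigned to the 3-oxoacyl-ACP reductases, which take part in each round of chain lengthening, averaged 87.2 ± 34.1 FPKM at 120 DAF, against 11.3 ± 7.80 FPKM at 90 DAF (SD, n = 3 each). It rose by a log2 fold change of 3.20 ± 0.62 (edgeR, adjusted p = 0.0135). Aco016225, a long-chain acyl-CoA synthetase, which activates fatty acids, had 9.52, 9.57 and 9.02 FPKM at 120 DAF, against 27.1, 41.2 and 26.3 FPKM at 90 DAF and a log2 fold change of -1.46 ± 0.19 (edgeR, adjusted p = 0.00368). In fatty acid elongation 2 of 17 tested members rose and 4 fell (with total count scaling 0 rose, 4 fell and the median was -0.71). Under the trimmed mean these shares were 11.8% and 23.5%, with a median of -0.41. There 0 to 1 rose without any one of 60 DAF library 1, 2 or 3 or 90 DAF library 1, 2 or 3 or 120 DAF library 1, 2 or 3 and 2 fell without 120 DAF library 1. Aco001289, a ketoacyl-CoA reductase of fatty acid elongation, had 0.499, 0.317 and 0.427 FPKM at 120 DAF, against 8.26, 8.23 and 6.18 FPKM at 90 DAF and a log2 fold change of -3.83 ± 0.62 (edgeR, adjusted p = 0.00756). Of 8 tested 3-ketoacyl-CoA synthases, which set wax chain length, 0 rose and 2 fell.

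**Figure D4:**
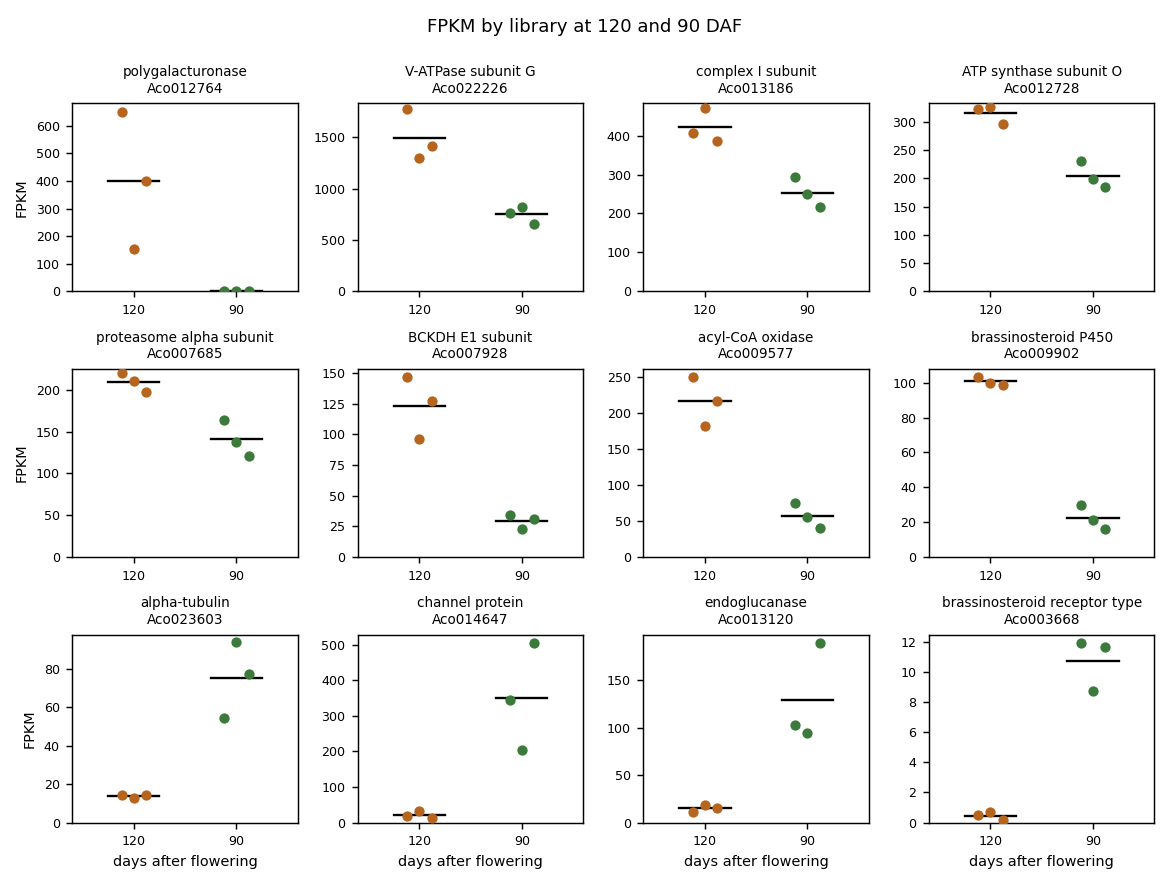
FPKM of 12 genes in each library (dots) with the mean of the 3 libraries (bar), 120 DAF left of 90 DAF in each panel. In the first 8 panels, from the polygalacturonase to the brassinosteroid P450, every 120 DAF library lies above every 90 DAF library, and in the last 4, from the alpha-tubulin to the brassinosteroid receptor type, every one lies below.

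Defence-related genes split by family member. Among chitinases and beta-1,3-glucanases, which attack fungal walls, 6 of 39 tested members rose and 10 fell (with total count scaling 5 rose, 12 fell and the median was -0.56). Under the trimmed mean these shares were 15.4% and 25.6%, with a median of -0.27. The summed FPKM of the tested members went the other way. It was 8161, 9862 and 10201 at 120 DAF, against 3287, 1497 and 3195 at 90 DAF. In this group 2 rose without 120 DAF library 1 or 3, 3 rose without 90 DAF library 2 and 6 fell without 120 DAF library 1. Aco011824, a chitinase, had 249, 82.7 and 139 FPKM at 120 DAF, against 13.5, 15.1 and 16.5 FPKM at 90 DAF. This gave a log2 fold change of 3.67 ± 0.43 (edgeR, adjusted p = 0.00299). Aco018556, a second chitinase, had 35.9, 71.9 and 48.2 FPKM at 120 DAF, against 525, 689 and 846 FPKM at 90 DAF. Its 120 DAF libraries were each far below its 90 DAF libraries, and the log2 fold change was -3.46 ± 0.32 (edgeR, adjusted p = 0.00178).

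Jasmonate genes, whose product hormone is made from membrane fatty acids, were mostly lower where called. There 3 of 50 tested members rose and 8 fell, with a median of -0.79 (with total count scaling 0 rose, 16 fell and the median was -1.07). Here 0 rose without 120 DAF library 1, 1 rose without 90 DAF library 2 or 3 or 120 DAF library 2 and 2 fell without 120 DAF library 1. Aco013541, a lipoxygenase, which oxidises the fatty acid at the start of the route, had 27.1, 98 and 33.6 FPKM at 120 DAF, against 361, 311 and 265 FPKM at 90 DAF. Its log2 fold change was -2.29 ± 0.48 (edgeR, adjusted p = 0.0178), and the adjusted p was 0.0550 with 120 DAF library 1 left out and 0.0604 with 120 DAF library 3 left out within a range of 2.82e-05 to 0.0604. Aco006060, allene oxide cyclase, which closes the ring of the jasmonate precursor, had 93.9, 237 and 167 FPKM at 120 DAF, against 747, 550.0 and 2042 FPKM at 90 DAF. The third 90 DAF library was the highest. On the log2 scale it changed by -2.53 ± 0.59 (edgeR, adjusted p = 0.0244), which was -1.63 without 90 DAF library 3. The adjusted p was 0.0687 with only the 2 ages in the fit, 0.0857 with 120 DAF library 1 left out and 0.0734 with 120 DAF library 3 left out within a range of 0.000121 to 0.0857.

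Brassinosteroid synthesis and response genes are given separately, and no test compared the groups. Brassinosteroids are plant steroid hormones made by a chain of P450 oxidations and sensed by receptor kinases at the cell surface. Among synthesis genes 6 of 16 tested members rose and 2 fell, with a median of 1.0 (with total count scaling 6 rose, 3 fell and the median was 0.69). There 0 fell without 120 DAF library 1 or 3 and 1 fell without 120 DAF library 2. Aco009902, a P450 that KEGG assigns to this route, had 104, 100 and 98.7 FPKM at 120 DAF, against 29.8, 20.9 and 16.3 FPKM at 90 DAF. Its 120 DAF libraries lay close together and well above the others, and the log2 fold change was 2.48 ± 0.23 (edgeR, adjusted p = 0.00176). Aco015233, assigned to the same step, had 15.6, 14.4 and 16.7 FPKM at 120 DAF, against 4.93, 4.67 and 1.91 FPKM at 90 DAF and a log2 fold change of 2.34 ± 0.41 (edgeR, adjusted p = 0.0100). Aco013375, another P450 of the route, had 1.39, 6.01 and 2.24 FPKM at 120 DAF, against 0, 0 and 0 FPKM at 90 DAF and was at least 298-fold higher at 120 DAF against a floor of 3 counts over the 3 libraries of 90 DAF (edgeR adjusted p = 0.0150). Aco014296 had 11.1, 2.08 and 6.89 FPKM at 120 DAF, against 0, 0.0285 and 0 FPKM at 90 DAF, with 3 counts in all at 90 DAF and a ratio of counts scaled for depth of 634 (95% counting interval 216 to 3076, edgeR adjusted p = 0.00650).

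On the response side 1 of 30 tested members rose and 5 fell, with a median of -0.05 (with total count scaling 1 rose, 5 fell and the median was -0.30). In this group 2 rose without 90 DAF library 3. Aco003668, a receptor kinase of the brassinosteroid receptor type, had 0.498, 0.666 and 0.199 FPKM at 120 DAF, against 11.9, 8.71 and 11.6 FPKM at 90 DAF. Every 120 DAF library was below 1 FPKM, and the log2 fold change was -4.25 ± 0.50 (edgeR, adjusted p = 0.00300). Aco009998, a transcription factor of the BZR type that acts at the end of the signal, had 3.34, 2.01 and 3.13 FPKM at 120 DAF, against 13.0, 41.2 and 12.9 FPKM at 90 DAF and a log2 fold change of -2.66 ± 0.49 (edgeR, adjusted p = 0.0114). Aco014133, a signalling kinase that acts just below the receptor, had 56.6, 52.2 and 61.2 FPKM at 120 DAF, against 32.2, 17.8 and 31.9 FPKM at 90 DAF and a log2 fold change of 1.34 ± 0.26 (edgeR, adjusted p = 0.0126).

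Auxin and cytokinin genes were called in both directions, at shares not far from those of all genes. Of the auxin response genes, 3 of 55 tested members rose and 6 fell (5.45% and 10.9%, against 8.19% and 9.17% of all genes). The median log2 fold change was -0.14, and with total count scaling 2 rose, 10 fell and the median was -0.42. Aco005634, an Aux/IAA protein, a repressor that auxin removes, had 86.4, 60.2 and 40.9 FPKM at 120 DAF, against 2.81, 2.24 and 1.94 FPKM at 90 DAF. The log2 fold change was 5.04 ± 0.37 (edgeR, adjusted p = 0.00153). Aco010797, another Aux/IAA, had 117, 93.6 and 99.2 FPKM at 120 DAF, against 237, 332 and 223 FPKM at 90 DAF and a log2 fold change of -1.06 ± 0.21 (edgeR, adjusted p = 0.0154), with an adjusted p of 0.0532 with 120 DAF library 3 left out in a range of 7.27e-05 to 0.0532. Aco014099, annotated as an auxin transporter-like protein, had 11.7, 6.64 and 10.7 FPKM at 120 DAF, against 43.3, 89.6 and 48.2 FPKM at 90 DAF and a log2 fold change of -2.33 ± 0.34 (edgeR, adjusted p = 0.00532). Aco011886, an auxin response factor, had 18.6, 30.5 and 17.1 FPKM at 120 DAF, against 79.7, 119.8 and 64.6 FPKM at 90 DAF and a log2 fold change of -1.71 ± 0.29 (edgeR, adjusted p = 0.00899). Of the cytokinin genes, 3 of 30 tested members rose and 4 fell (10% and 13.3%, with total count scaling 3 and 5). Without 120 DAF library 1 or 3, 1 rose. Aco003366, a type-A response regulator, which dampens cytokinin signalling, had 492, 452 and 544 FPKM at 120 DAF, against 275, 290.2 and 249.7 FPKM at 90 DAF and a log2 fold change of 1.17 ± 0.21 (edgeR, adjusted p = 0.0101). Aco000630, of the same type, had 7.95, 12.5 and 6.55 FPKM at 120 DAF, against 29.6, 38.6 and 25.7 FPKM at 90 DAF and a log2 fold change of -1.51 ± 0.25 (edgeR, adjusted p = 0.00863).

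The other hormone groups were small, with 19 to 36 tested members and 4 to 10 called members each. Of all genes tested 8.19% rose and 9.17% fell. In abscisic acid synthesis and signalling 4 of 36 tested members rose and 6 fell (11.1% and 16.7%, with total count scaling 2 and 7). The count that rose was 0 without 120 DAF library 3, 1 without 120 DAF library 1 and 7 without 90 DAF library 3. It was 2 without 60 DAF library 1 or 90 DAF library 1 or 2 or 120 DAF library 2. Without 120 DAF library 1, 2 fell. Aco000963 and Aco002505 are PYL-type abscisic acid receptors. Aco002505 had 0.382, 2.56 and 2.12 FPKM at 120 DAF, against 143, 56.3 and 80.3 FPKM at 90 DAF, a log2 fold change of -5.46 ± 0.70 (edgeR, adjusted p = 0.00368). Aco000963 had 0, 0 and 0 FPKM at 120 DAF, against 16.3, 7.46 and 5.48 FPKM at 90 DAF and was at least 184-fold lower at 120 DAF (edgeR adjusted p = 0.0172). In ethylene synthesis and response 0 of 27 tested members rose and 4 fell (0% and 14.8%, with total count scaling 0 rose, 8 fell and the median was -0.63). Here 1 rose without 90 DAF library 3 or 120 DAF library 2, 0 fell without 120 DAF library 3 and 2 fell without 120 DAF library 1. In gibberellin response 3 of 35 tested members rose and 4 fell (8.57% and 11.4%, with total count scaling 1 and 5). The count that rose was 0 without 120 DAF library 3. It was 1 without 60 DAF library 2 or 3 or 90 DAF library 1 or 2 or 120 DAF library 1. Aco004914, a light-linked transcription factor of the PIF type, had 4.51, 6.93 and 7.24 FPKM at 120 DAF, against 18.8, 30.7 and 27.6 FPKM at 90 DAF and a log2 fold change of -1.76 ± 0.28 (edgeR, adjusted p = 0.00755). In salicylate response 4 of 19 tested members rose and 2 fell (21.1% and 10.5%, with total count scaling 2 and 2). Without 120 DAF library 1 or 3, 1 rose. The count that fell was 1 without 60 DAF library 1 or 3 or 90 DAF library 1 or 2 or 120 DAF library 1, 2 or 3. Aco001167, a TGA-type transcription factor of that group, had 106, 76.8 and 83.2 FPKM at 120 DAF, against 25.3, 22.8 and 25.9 FPKM at 90 DAF and a log2 fold change of 2.13 ± 0.19 (edgeR, adjusted p = 0.00170), while Aco016723 of the same type had 3.97, 6.50 and 4.47 FPKM at 120 DAF, against 17.8, 18.7 and 12.1 FPKM at 90 DAF and a log2 fold change of -1.40 ± 0.25 (edgeR, adjusted p = 0.0107).

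Genes that bind DNA to control others did not lean one way. Of them 24 of 236 tested members rose and 16 fell, and the split became 19 and 31 with total count scaling. In this group 9 rose without 120 DAF library 1, 12 rose without 120 DAF library 3, 3 fell without 120 DAF library 1 and 6 fell without 120 DAF library 3. Aco015487, abundant at both ages, had 1948, 1496 and 1652 FPKM at 120 DAF, against 515, 844 and 330.4 FPKM at 90 DAF and a log2 fold change of 1.91 ± 0.34 (edgeR, adjusted p = 0.0105). Aco021063 had 1459, 1082 and 1177 FPKM at 120 DAF, against 480.4, 422 and 583 FPKM at 90 DAF and a log2 fold change of 1.60 ± 0.25 (edgeR, adjusted p = 0.00723). In the circadian rhythm group 5 of 77 tested members rose and 6 fell (6.49% and 7.79%, with total count scaling 3 and 9). The count that rose was 0 without 120 DAF library 1 and 3 without 120 DAF library 3. Without 60 DAF library 2 or 120 DAF library 1 or 3, 3 fell. GIGANTEA (Aco014347), a core clock protein, was not called, with 304, 249 and 313 FPKM at 120 DAF, against 281, 275 and 209 FPKM at 90 DAF, and its ages overlapped.

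In several large gene groups most tested members were not called. Under trimmed-mean scaling the median log2 fold change was 0.16 for ribosomal protein, 0.14 for spliceosome, 0.07 for endoplasmic reticulum and 0.09 for ubiquitin genes. Of the ribosomal protein genes, 17 of 308 tested members rose and 17 fell (5.52% and 5.52%, and with total count scaling 3 rose, 33 fell and the median was -0.13). There 2 to 9 rose without any one of 60 DAF library 1, 2 or 3 or 90 DAF library 3 or 120 DAF library 1, 2 or 3, 2 to 10 fell without any one of 60 DAF library 1, 2 or 3 or 90 DAF library 1 or 2 or 120 DAF library 1, 2 or 3 and 41 fell without 90 DAF library 3. Of the spliceosome, 21 of 211 tested members rose and 13 fell (9.95% and 6.16%, and with total count scaling 3 rose, 23 fell and the median was -0.15). In this group 5 to 13 rose without any one of 60 DAF library 1, 2 or 3 or 120 DAF library 1, 2 or 3 and 3 to 8 fell without any one of 60 DAF library 1, 2 or 3 or 90 DAF library 2 or 120 DAF library 1, 2 or 3. Of protein processing in the endoplasmic reticulum, 13 of 243 tested members rose and 9 fell (5.35% and 3.70%, and with total count scaling 6 rose, 28 fell and the median was -0.22). Here 3 to 8 rose without any one of 60 DAF library 2 or 90 DAF library 1 or 120 DAF library 1 or 3, 4 to 5 fell without any one of 120 DAF library 1 or 3 and 14 fell without 90 DAF library 3. Of ubiquitin mediated proteolysis, which tags proteins for the proteasome, 20 of 178 tested members rose and 9 fell (11.2% and 5.06%, and with total count scaling 7 rose, 16 fell and the median was -0.21). There 5 to 12 rose without any one of 60 DAF library 2 or 90 DAF library 1 or 120 DAF library 1 or 3, 3 fell without any one of 120 DAF library 1 or 3 and 14 fell without 90 DAF library 3. The xyloglucan transferases, which rejoin hemicellulose chains, showed how much 1 library can differ. Their most abundant gene, Aco025351, had 23.2, 68.7 and 958 FPKM at 120 DAF, against 99.4, 270.1 and 413 FPKM at 90 DAF and was not called, with a log2 fold change of 0.70 ± 1.17 (edgeR, adjusted p = 0.725), which was -2.31 without 120 DAF library 3.

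A pair of peptidase inhibitor genes lie next to each other on contig 4. The more abundant, Aco013999 (632664 to 633493), had 127079, 125580.0 and 64076 FPKM at 120 DAF, against 42254, 26069.5 and 29249 FPKM at 90 DAF. The fitted log2 change was 1.99 ± 0.35 (edgeR, adjusted p = 0.00966), and the adjusted p was 0.170 with limma on log2(FPKM + 1), 0.0810 with limma on log2(FPKM + 0.1) and 0.0528 with only the 2 ages in the fit in a range of 2.93e-09 to 0.170. Its neighbour Aco014000 (625429 to 626698) had 88.4, 152 and 24.7 FPKM at 120 DAF, against 659, 3760.4 and 1065 FPKM at 90 DAF. This gave a log2 fold change of -4.09 ± 0.93 (edgeR, adjusted p = 0.0223), and the adjusted p was 0.0531 with only the 2 ages in the fit, 0.0808 with 120 DAF library 1 left out and 0.0585 with 120 DAF library 3 left out in a range of 3.45e-06 to 0.0808. Aco005846, a peptidase, was also abundant, with 3116, 1503 and 1621 FPKM at 120 DAF, against 565, 386 and 258 FPKM at 90 DAF and a log2 fold change of 2.69 ± 0.42 (edgeR, adjusted p = 0.00677).

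The libraries of 60 DAF show what came before. For comparison, 132 genes passed the test between 90 and 60 DAF, and 1521 passed a test of whether the change over the second interval differed from that over the first. Several genes that rose at 120 DAF had been lower at 90 than at 60 DAF. Aco024209, a transcription coregulator type, had 144, 354 and 378 FPKM at 60 DAF. It then had 18.8, 28.8 and 9.72 FPKM at 90 DAF and 223, 208 and 225 FPKM at 120 DAF, and the 2 intervals differed by 7.80, edgeR adjusted p = 0.00526 (log2 scale). Aco005634, the Aux/IAA gene above, had 26.2, 31.0 and 49.9 FPKM at 60 DAF (difference 8.99, edgeR adjusted p = 0.00233). Aco017378, the sucrose-phosphate synthase, had 157, 36.1 and 69.6 FPKM at 60 DAF (difference 9.69, edgeR adjusted p = 0.0169). Others had been higher at 90 than at 60 DAF and fell after. Aco003394, the antenna gene, had 6.74, 9.60 and 6.79 FPKM at 60 DAF (difference -12.76, edgeR adjusted p = 0.00420). Aco018556, the chitinase, had 256, 269 and 298 FPKM at 60 DAF (difference -4.80, edgeR adjusted p = 0.00420). Aco006060, the allene oxide cyclase, had 119, 201 and 118 FPKM at 60 DAF (difference -5.52, edgeR adjusted p = 0.0157). The test of the difference shares the 90 DAF libraries between both intervals.

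**Figure D5:**
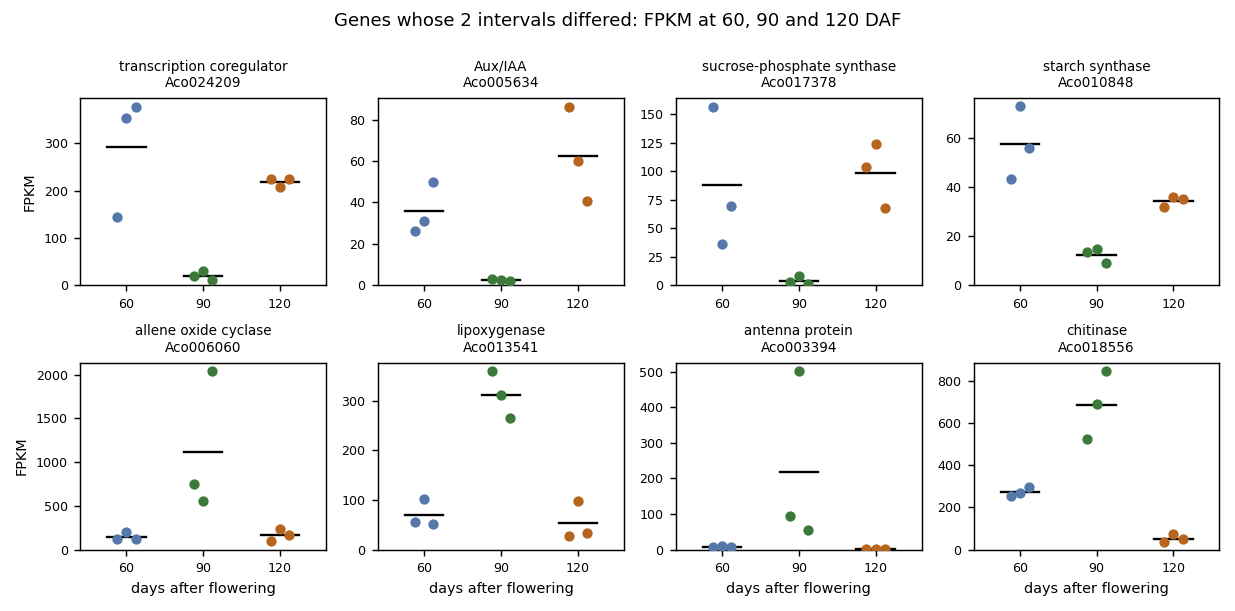
FPKM of 8 genes in each library at 60, 90 and 120 DAF (dots), with the mean of the 3 libraries of each age (bar). By mean, the coregulator, Aux/IAA, sucrose-phosphate synthase and starch synthase genes are lowest at 90 DAF, and the allene oxide cyclase, lipoxygenase, antenna and chitinase genes are highest there.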

How the data were processed

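Poly(A) RNA of pineapple peel was sequenced as paired-end Illumina libraries, per the labels' protocols. The deposited table holds the authors' whole-number read counts per gene and the authors' FPKM values, per the file headers, in which a count of 0 is written as 0.0001 and is given here as 0. Bowtie 0.12.2, HISAT2 2.0 and StringTie 1.3.0 are named in the submitters' processing notes. No tool role, strand setting or genome build is named (not given in the sources used here), and contig positions come from the deposited table. Near-identical copies may split reads.

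For 16791 genes (1 FPKM or more in 3 or more of 9 libraries) the authors' counts were fitted in 1 edgeR 4.0.16 quasi-likelihood model with TMM scaling over the 3 ages, with 6 residual degrees of freedom, and the 120 against 90 DAF contrast was tested with Benjamini-Hochberg adjustment at 0.05. Standard errors are the log2 fold change over the square root of F. FPKM values carry the library total and folds carry TMM (factors 0.849 to 0.911 at 120 DAF, 0.973 to 1.148 at 90 DAF), so ratios of FPKM differ from folds. Gene groups follow the KEGG, GO and ortholog columns. The members, the 48 gene lists and 22 further lists were chosen with earlier results of these data known. The further lists, and 78 genes outside the rule for named genes, were chosen after values were seen, as was which genes are given in full. That rule took the 12 largest annotated changes each way without overlap and with a mean of at least 5 FPKM at the higher age, up to 4 of the most abundant called members of each list, each list's most abundant member, and all called members of lists with 5 or fewer. It named 201 genes, of which 179 were called. No member was tested for 4 lists (SWEET transporters, expansins, cellulose synthases by ortholog code and core histones).

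Alternatives were no filter, a filter of 5 FPKM, median-ratio and total count scaling, DESeq2 1.42.0, limma 3.58.1 on log2(FPKM + 1) and on log2(FPKM + 0.1), a fit of the 2 ages alone, a replicate block, and each library left out. In data simulated for this contrast with 200 of 16791 genes changed, 43% of 4-fold and 2% of 2-fold changes were recovered, with 3 false calls. In the real data 2915 genes were called, far more than were changed in the simulation. The adjustment is stricter when few genes change, so these recovery shares do not carry over to the real data. Versions were R 4.3.3, Python 3.11.15, pandas 2.3.3 and matplotlib 3.10.9. No reference sequence or RefSeq name matched these identifiers, so none was used here.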

Additional observations from a re-analysis of the deposited data

How the results depend on the processing

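The number of genes called was 1375 higher and 1540 lower. Scaling by total count gave 649 higher and 2565 lower, DESeq2 gave 2122 and 2534, limma gave 713 and 2468 on log2(FPKM + 1) and 714 and 2526 on log2(FPKM + 0.1), and a fit of the 2 ages alone gave 527 and 688. With the replicate number as a block the counts were 886 higher and 1084 lower. Correlations of the deviations of same-numbered libraries from their age means ran from -0.339 to 0.390, so the numbers were not taken as pairs. No filter gave 1177 and 1413, the 5 FPKM filter 1080 and 1284, and median-ratio scaling 1306 and 1590. Leaving out 1 library gave 472 to 1308 higher and 622 to 1856 lower, lowest without 120 DAF replicate 1. Fewer samples enter the fits that leave out libraries or 60 DAF. The cause of the shifts was not tested for any setting. Of the 155 named genes that rose and the 102 that fell, 63 and 52 passed in every alternative. The 3 libraries per age and their spread (biological coefficient of variation 0.434 at 120 DAF and 0.503 at 90 DAF) limit which changes can be called, at 4-fold as well as below it.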
